A study of Mus musculus with 6 samples.

Results

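The 10 genes described here, Cbln1, Cbln3, Gabra6, Gabrd, Fat2, En2, Barhl1, Zic1, Zic2 and Cnpy1, are known for expression in granule cells of the mouse cerebellum or in the territory that forms them. They were found by symbol among the 22095 genes of a table of read counts, and all 10 were present. The table holds 6 libraries of polyadenylated RNA from 3 outbred ICR mice, numbered 1037, 1038 and 1039. In each mouse the left naris was closed with a silica gel plug at postnatal day 30, and both olfactory bulbs were taken 60 days later after perfusion. The left libraries are labelled as bulbs of the plugged side and the right libraries as bulbs of the open side of the same mice, 3 per side. Every open side bulb thus also comes from a plugged mouse, and unplugged mice were not analysed here. The genes were chosen by their read counts in 1 library, the one labelled left 1038, against those in the other 5, and that contrast is given as a description without a test. The rule that lists them also names left against right among the other 5 libraries, 2 left and 3 right. Whether those values played a part in the choice is not known, so the fit over all genes is given for each gene and nothing is read from the members' count.

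Granule cells are small excitatory neurons of the cerebellum, whose axons, the parallel fibres, contact Purkinje cells. They arise from progenitors of the rhombic lip, where Zic and Barhl transcription factors act. Mature granule cells carry GABA-A receptors with the alpha 6 and delta subunits, which lie outside synapses and give a tonic inhibition. They release the cerebellins Cbln1 and Cbln3, and Cbln1 acts at the synapse between parallel fibres and Purkinje cells. The olfactory bulb has granule cells too, but those are GABAergic interneurons that share little more than the name, and several Zic genes are known in bulb interneurons.

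The library labelled left 1038 went against its label. All 11 markers of the olfactory bulb were over 4-fold lower in it than in the mean of the other 5, with a summed level of 62.0 CPM (counts scaled to the same library total) against 1928 to 2299 CPM. Over all 13841 genes with a mean of at least 1 CPM over the 6 libraries, left 1038 included, 8.78% were over 4-fold lower. Dlx2, an interneuron transcription factor, had a count of 0 in it. The library is called by its label throughout. The libraries held 14571453 to 15590938 counts. Where a gene had no read, up to 3 counts are allowed, which is 0.192 to 0.206 CPM. Such limits and the intervals below cover counting error only.

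The promoters of 3 of the genes are shown because they stand for the contrasts that follow: Gabra6 and Cbln3 were near 0 in the 5 other libraries, and Zic1 was expressed in all 6. Each sequence runs 5′ to 3′ from 250 bases before to 50 bases after the start site, from RefSeq on GRCm38.p6. Capitals mark TTGGC or its complement GCCAA, the half-site that nuclear factor I (NFI) proteins bind. NFI factors are known to act on the Gabra6 gene in rodent granule cells.
Gabra6, minus strand, chr11:42321023-42321322: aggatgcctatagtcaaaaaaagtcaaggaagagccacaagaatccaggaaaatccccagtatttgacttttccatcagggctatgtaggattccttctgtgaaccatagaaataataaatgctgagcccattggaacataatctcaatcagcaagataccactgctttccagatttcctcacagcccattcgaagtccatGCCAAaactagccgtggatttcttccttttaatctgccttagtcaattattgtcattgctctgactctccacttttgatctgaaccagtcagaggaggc
Cbln3, minus strand, chr14:55884207-55884506: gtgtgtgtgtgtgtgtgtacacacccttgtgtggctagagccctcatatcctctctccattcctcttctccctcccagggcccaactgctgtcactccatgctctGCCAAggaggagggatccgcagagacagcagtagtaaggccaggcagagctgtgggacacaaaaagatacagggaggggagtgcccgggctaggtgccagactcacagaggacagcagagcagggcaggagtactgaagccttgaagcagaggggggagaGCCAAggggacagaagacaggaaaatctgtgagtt
Zic1, minus strand, chr9:91365719-91366018: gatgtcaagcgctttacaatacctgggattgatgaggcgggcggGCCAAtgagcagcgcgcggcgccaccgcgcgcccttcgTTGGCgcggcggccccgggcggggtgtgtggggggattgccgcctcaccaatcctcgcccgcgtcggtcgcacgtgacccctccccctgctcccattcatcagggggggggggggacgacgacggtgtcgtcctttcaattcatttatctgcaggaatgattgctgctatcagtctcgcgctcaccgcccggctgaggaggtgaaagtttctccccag

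The promoter table held 6 of the 10 genes, with 8 promoters, and did not list Cbln1, Gabrd, En2 or Zic2. The Gabra6 promoter had 1 NFI half-site, which begins 49 bases before the start site. The half-site was found on either strand in 5 of the 8 promoters, and in 46.7% of the 32851 promoters of the same length in the table. The E-box CANNTG, the letters that basic helix-loop-helix factors bind, was present in 7 of the 8 and in 72.3% of all promoters, and was not found in that of Gabra6. The promoters differed in composition. Those of Gabra6, Fat2 and Cbln3 held 2, 4 and 2 CG dinucleotides and that of Zic1 held 31. The promoters of Cnpy1 held 6 and 34, and those of Barhl1 held 9 and 14. The median over all promoters was 7. These matches are letters in a window of 300 bases and show no binding.

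In the library labelled left 1038 the 10 genes fell into a set that was nearly private to it and a set that the bulb libraries expressed as well. The first set, split off after the values were seen at a mean of 2 CPM in the other 5 libraries, is Gabra6, Cbln3, Fat2, Cnpy1, En2 and Barhl1. The second is Cbln1, Gabrd, Zic1 and Zic2. All 10 stood over 4-fold above the mean of the other 5, where 2.95% of the 13841 genes with a mean of at least 1 CPM did. The members were chosen for this contrast, so nothing is read from that count. The median log2 ratio of the 10 genes was 9.11, against -0.04 over those 13841 genes.

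**Figure D1:**
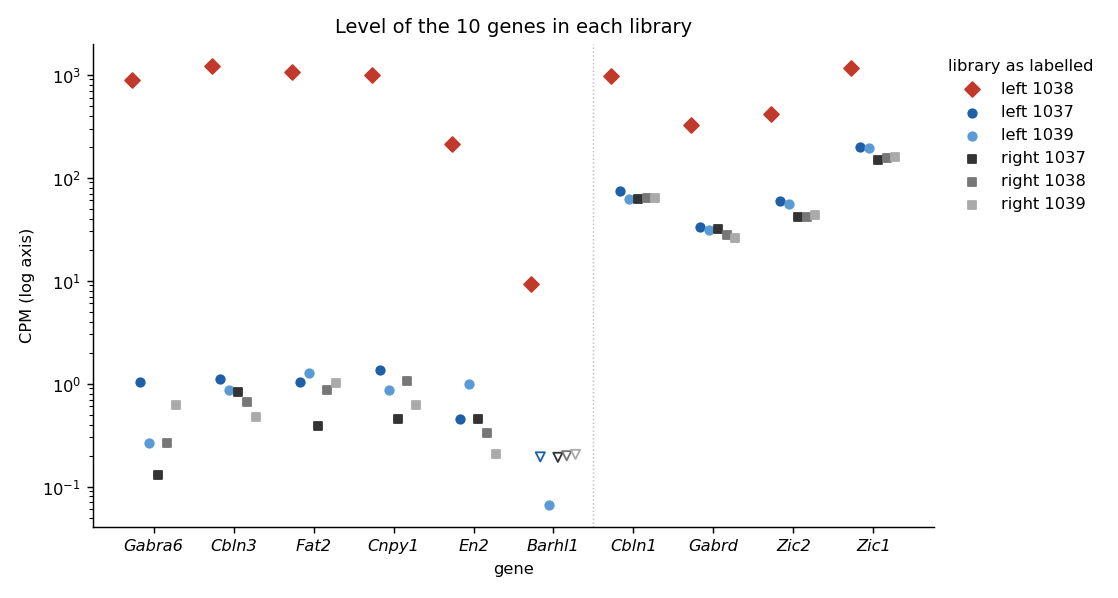
Level of each gene in CPM, on a log axis, in the library labelled left 1038 (diamonds), the 2 other left libraries (circles) and the 3 right libraries (squares), with the 6 nearly private genes left of the dotted line. Open triangles stand for a count of 0 and are drawn at the level of 3 counts. The diamonds of Gabra6, Cbln3, Fat2 and Cnpy1 lie at 896 to 1217 CPM with all other points under 1.5 CPM, while Cbln1, Gabrd, Zic2 and Zic1 are present in every library.

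Gabra6, the alpha 6 subunit of the GABA-A receptor (ENSMUSG00000020428, chromosome 11, 42306437 to 42321072 on GRCm38), had 896 CPM in left 1038. In left 1037 and left 1039 it had 1.04 and 0.266 CPM, and in right 1037, 1038 and 1039 it had 0.128, 0.265 and 0.614 CPM. The ratio of left 1038 to the mean of the other 5 was 1939, the second largest of the 13841 genes. Those low values rest on 2 to 16 reads per library, and the 2 sides overlapped.

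Gabrd, the delta subunit (ENSMUSG00000029054, chromosome 4, 155384980 to 155398112), had 327 CPM in left 1038. It had 33.2 and 30.7 CPM in left 1037 and 1039, and 31.8, 27.8 and 25.7 CPM in right 1037, 1038 and 1039. The bulb libraries thus held 9.13% of the level of left 1038 for the delta subunit and 0.0516% for the alpha 6 subunit. Both subunits were abundant in left 1038, while the other libraries held transcripts of the delta subunit with at most 1.04 CPM of alpha 6.

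Cbln3 (ENSMUSG00000040380, chromosome 14, 55878913 to 55884392) encodes a cerebellin that is secreted when it assembles with Cbln1. It had 1217 CPM in left 1038. Its level was 1.10 and 0.863 CPM in left 1037 and 1039, and 0.834, 0.662 and 0.478 CPM in right 1037, 1038 and 1039. Cbln1 (ENSMUSG00000031654, chromosome 8, 87468405 to 87472609) had 982 CPM in left 1038, with 74.8 and 62.1 CPM in left 1037 and 1039 and 61.4, 62.9 and 63.3 CPM in right 1037, 1038 and 1039. Cbln1 transcripts were thus present in the bulb libraries at 6.61% of the level of left 1038, and those of its partner at 0.0647%. The span of Cbln1 lies fully within an antisense lincRNA gene, Gm2694, that is not in the table. The sources used here do not say whether counting used the strand, so reads of the pair cannot be told apart.

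Fat2, a giant cadherin of parallel fibres (ENSMUSG00000055333, chromosome 11, 55250609 to 55336564), had 1054 CPM in left 1038. Left 1037 and 1039 had 1.04 and 1.26 CPM, and right 1037, 1038 and 1039 had 0.385, 0.861 and 1.02 CPM. Cnpy1, a canopy protein known from FGF signalling at the midbrain-hindbrain boundary of zebrafish (ENSMUSG00000044681, chromosome 5, 28200819 to 28245806), had 1001 CPM in left 1038. It had 1.36 and 0.863 CPM in left 1037 and 1039, and 0.449, 1.06 and 0.614 CPM in right 1037, 1038 and 1039. Fat2 was 1154-fold and Cnpy1 1152-fold higher in left 1038 than in the mean of the others.

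En2, an engrailed homeobox factor of the midbrain and hindbrain (ENSMUSG00000039095, chromosome 5, 28165694 to 28172166), is the nearest coding neighbour of Cnpy1, with 28.7 kb between them on opposite strands. En2 had 213 CPM in left 1038. It had 0.454 and 0.996 CPM in left 1037 and 1039, and 0.449, 0.331 and 0.205 CPM in right 1037, 1038 and 1039. Both neighbours were thus high in the same library, En2 at 437-fold and Cnpy1 at 1152-fold above the mean of the others.

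Barhl1, a homeobox factor that acts downstream of Atoh1 in granule cell precursors (ENSMUSG00000026805, chromosome 2, 28907679 to 28916668), was the lowest of the 10 genes. It had 135 reads, 9.26 CPM, in left 1038. In the other 5 libraries together it had 1 read, in left 1039. The pooled ratio of left 1038 to the others was 703, with an exact 95% interval of 124 to 27954 for counting error. Atoh1 itself, the factor of dividing granule cell progenitors, had a count of 0 in left 1038 and 1 read in left 1037.

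Zic1, a zinc finger factor of granule cell progenitors and neurons (ENSMUSG00000032368, chromosome 9, 91358058 to 91365810), had 1173 CPM in left 1038. It had 198 and 196 CPM in left 1037 and 1039, and 148, 154 and 158 CPM in right 1037, 1038 and 1039. Zic2 (ENSMUSG00000061524, chromosome 14, 122475435 to 122479852), a close relative, had 417 CPM in left 1038, with 59.2 and 55.2 CPM in left 1037 and 1039 and 41.9, 41.7 and 43.1 CPM in right 1037, 1038 and 1039. For both, left 1038 was highest, the other left libraries came next and the right libraries were lowest, with no overlap between the sides, as for 33.2% of all genes tested in that direction on this scale. The bulb libraries held 14.6% of the left 1038 level of Zic1 and 11.6% of that of Zic2. The span of Zic1 overlaps that of Zic4, on the opposite strand, by 3398 bases, so reads there could be split between them.

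Levels were compared between genes as CPM per kb of the longest coding transcript. In left 1038 the order was Gabra6, Cbln1, Cnpy1 and Cbln3, at 363, 351, 332 and 250 CPM per kb, then Zic1 at 209, Zic2 at 171, Gabrd at 170, Fat2 at 72.6, En2 at 60.1 and Barhl1 at 2.53 CPM per kb. This is 1 library, so the order has no spread. The order depends on the transcript chosen. On the shortest coding transcript of at least 1000 bases Cbln3 came first with 846 CPM per kb, on 1438 in place of 4866 bases. Cbln1 and Gabra6 followed with 578 and 577 CPM per kb, then Cnpy1 with 505 and Zic1 with 417 CPM per kb, each over 1.5 times its level on the longest transcript, as was Barhl1 with 4.41 CPM per kb. In the other 5 libraries Zic1 led with 30.5 ± 4.30 CPM per kb, followed by Cbln1 with 23.2 ± 2.0, Zic2 with 19.8 ± 3.41 and Gabrd with 15.5 ± 1.6 CPM per kb (SD, n = 5). Zic1 was above Cbln1 in 5 of 5 libraries and Zic2 above Gabrd in 5 of 5, although the ranges of both pairs overlapped. Cbln1 was above Zic2 in 4 of 5. The other 6 genes stood at 0.288 CPM per kb or less, and among them Gabra6 was above Cbln3 in 2 of 5 libraries, so that pair has no order.

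The paralogs of the 10 genes, a list of 11 genes, and the other cerebellins and GABA-A subunits did not follow them as families. Of the 10 paralogs with a mean of at least 1 CPM, 2 were over 4-fold higher in left 1038, Zic5 and Barhl2. Another 2 were over 4-fold lower, Fat3 and Fat4. Over all genes with that mean, 2.95% were higher and 8.78% lower by this measure. Of the 4 cerebellin genes, Cbln2 and Cbln4 were near 0 in left 1038 and Cbln3 was near 0 in the others, while Cbln1 was present in all 6 libraries. Cbln2 had 0.206 CPM in left 1038 and 37.5 to 62.0 CPM in the other 5 libraries, and Cbln4 had 0.0686 CPM in left 1038 and 20.7 to 41.2 CPM in the others. In left 1038 Cbln1 and Cbln3 made up 58.4% and 41.6% of the summed cerebellin level per kb, against 42.8% ± 0.983 and 0.296% ± 0.0711 in the others (SD, n = 5). These shares use the longest coding transcript. On the shortest of at least 1000 bases the order in left 1038 reversed, with Cbln1 at 578 and Cbln3 at 846 CPM per kb.

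Several GABA-A subunits were low where Gabra6 and Gabrd were high. Gabra5 had 0.892 CPM in left 1038 against 85.1 to 143 CPM in the others, Gabra3 had 12.5 CPM against 151 to 204 CPM, and Gabrg3 had 1.92 CPM against 24.2 to 29.4 CPM. These 3 were over 4-fold lower, and none of the 11 other subunits was over 4-fold higher. Over all genes with a mean of at least 1 CPM, 8.78% were lower and 2.95% higher by this measure. Gabrb2, which lies 98.7 kb from Gabra6 on chromosome 11, had a log2 ratio of -0.42.

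Among relatives of Zic1 and Zic2, Zic4 had 85.4 CPM in left 1038 against 15.6 to 27.6 CPM in the others. Zic5, the neighbour of Zic2 at 9.8 kb, had 108 CPM in left 1038 against 9.17 to 13.5 CPM. In the Fat family Fat2 held 69.6% of the level per kb in left 1038 and 0.184% ± 0.0804 in the others (SD, n = 5), where Fat1 held 61.8% ± 3.03. Cnpy1 held 88.8% and 0.622% ± 0.260 of the canopy genes, while Cnpy2, Cnpy3 and Cnpy4 had log2 ratios of -0.15, -0.40 and 0.39. Barhl2, the paralog of Barhl1, had 52.2 CPM in left 1038 against a mean of 5.36 ± 1.24 CPM in the others (SD, n = 5), and so exceeded Barhl1 in every library. En1, the paralog of En2, had 1 read in left 1038 and 1 read in the 5 others together.

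**Figure D2:**
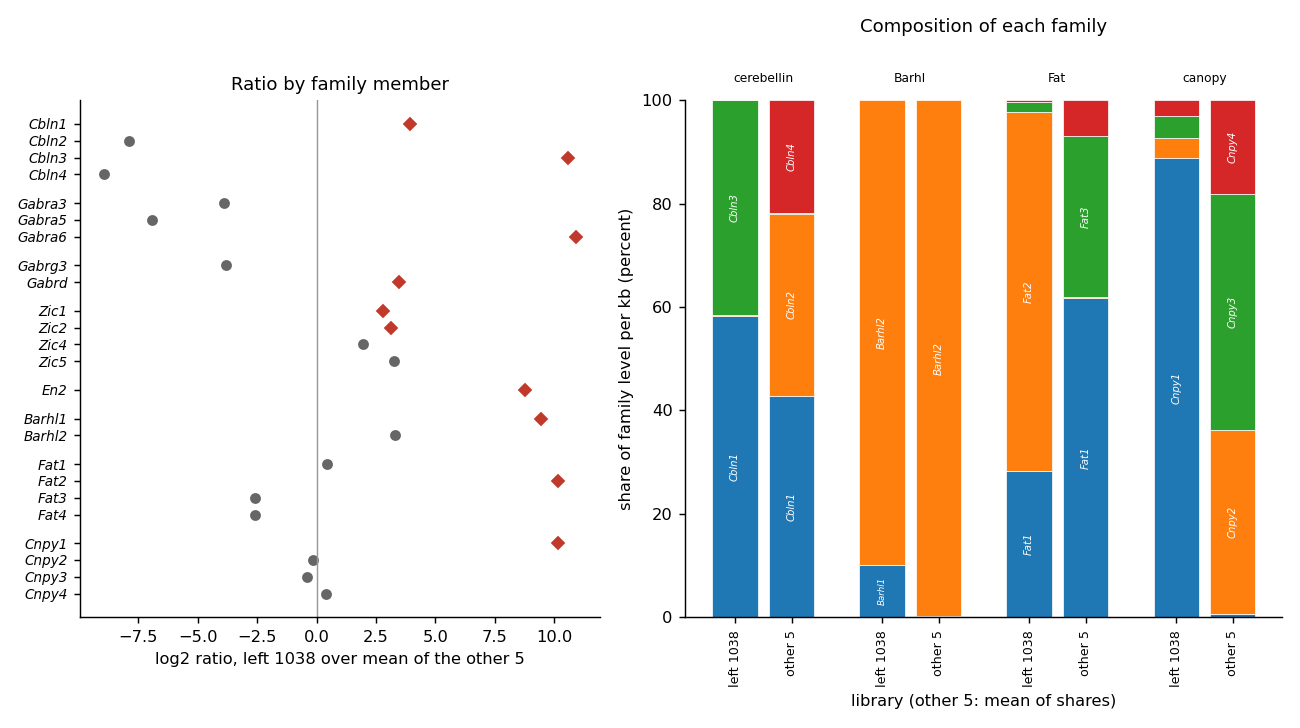
Left, log2 ratio of the library labelled left 1038 over the mean of the other 5. Red diamonds are the 10 genes and grey circles are relatives named in the text. En1, whose counts are too low for a ratio, and the subunits Gabrb1 and Gabrb2 are not drawn. Right, share of each gene in the summed CPM per kb of its family, in percent, in left 1038 and as the mean of the shares in the other 5, stacked from the bottom in the order of the gene list at left, for the cerebellin, Barhl, Fat and canopy genes. Shares use the longest coding transcript, on which Cbln3 fills 41.6% of the cerebellin bar in left 1038 and 0.296% in the others.

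Other genes of cerebellar granule cells varied in how far they went with the 10 genes. Of 18 such genes 8 were over 4-fold higher in left 1038 and 0 lower. Over all genes with a mean of at least 1 CPM the shares were 2.95% and 8.78%. Il16, whose neuronal form is known in granule cells, had 288 CPM against 1.22 to 3.39 CPM, and Cdh15, a cadherin, had 67.9 CPM against 1.10 to 1.99 CPM. Neurod2 and Neurod1, bHLH factors of differentiating neurons, had 180 and 518 CPM, against means of 5.68 ± 1.91 and 22.1 ± 13.3 CPM in the others (SD, n = 5). Slc17a7, the vesicular glutamate transporter of granule cells and also of bulb mitral cells, had 541 CPM against 569 to 648 CPM. Calb2, Meis1 and Tiam1 also had ratios within 1.5-fold. The NFI factors Nfia, Nfib and Nfix were 3.40-fold, 2.20-fold and 3.67-fold higher.

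Markers of other cerebellar cells were high in the same library, so the 10 genes were not alone. All 7 Purkinje cell markers were over 4-fold higher, where 2.95% of all genes with a mean of at least 1 CPM were. Among them was Pcp2, with 201 CPM against 0.130 to 0.449 CPM. Pcp2 reached the mean of 1 CPM only through left 1038, so nothing is read from the count of Purkinje markers. Their summed level was 5694 CPM against 292 to 326 CPM. Of the Bergmann glia markers 2 of 4 were over 4-fold higher, Gdf10 and Hopx, beside the same 2.95% over all genes. Of 6 interneuron markers with a mean of at least 1 CPM 5 were over 4-fold higher, among them Slc6a5, a glycine transporter, and Pax2, a factor of interneuron precursors, with 10.6 CPM and a count of 0 in each of the other 5. The sixth, Eomes, a factor of unipolar brush cells and also of bulb mitral cells, had 66.4 CPM against 185 to 210 CPM. Slc6a5, Pax2 and Tfap2a had means of 0.159, 0 and 0.658 CPM in the other 5 libraries. They reached the mean of 1 CPM only through left 1038, so nothing is read from the count of interneuron markers. Brainstem markers summed to 1.65 CPM in left 1038 against 0.192 to 0.863 CPM, with Hoxa2, Hoxb3 and Hoxb5 at 0. Of 6 progenitor genes with a mean of at least 1 CPM, 4 were over 4-fold lower, where 8.78% of all genes were, including Mki67 and Top2a, genes of dividing cells, each at 0.137 CPM. One of the 6, Gli1, a hedgehog target, was over 4-fold higher, with 35.1 CPM against a mean of 5.98 CPM, where 2.95% of all genes were. Right 1038, labelled as the other bulb of the same mouse, had 0.662 CPM of Cbln3, 0.265 CPM of Pcp2 and a summed bulb marker level of 2299 CPM. Only 1 library carries the cerebellar values, so its tissue and its handling cannot be told apart. In bulk RNA, fewer cells of a type and less RNA per cell cannot be told apart either.

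**Figure D3:**
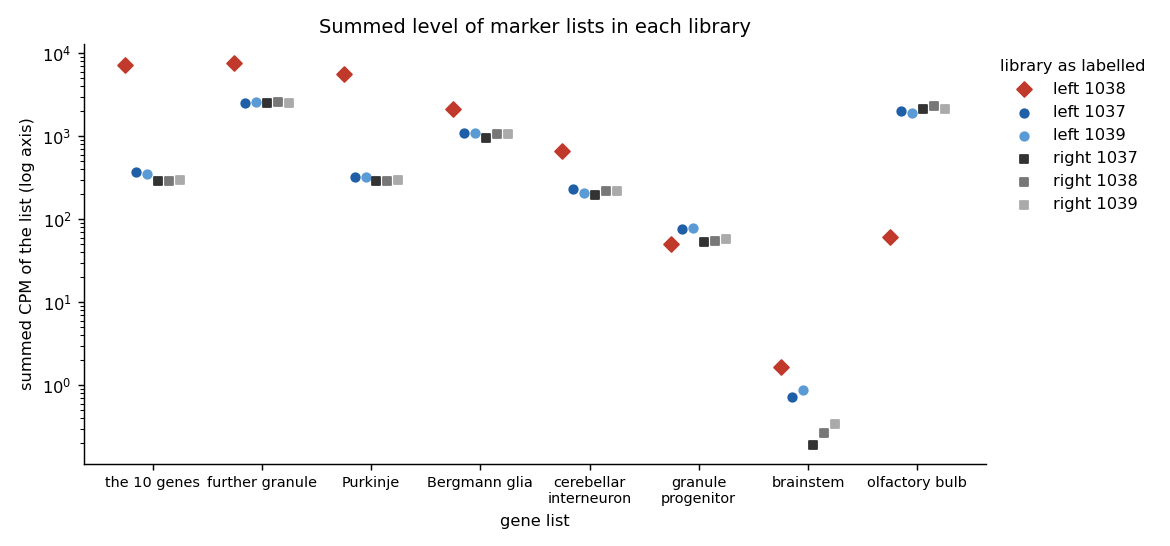
Summed CPM of 8 gene lists, on a log axis, in the library labelled left 1038 (diamonds), the 2 other left libraries (circles) and the 3 right libraries (squares). The diamond is highest for the 10 genes, further granule, Purkinje, Bergmann glia and cerebellar interneuron lists, and of the lists drawn it is lowest among the libraries for the granule progenitor list at 50.1 CPM and the olfactory bulb list at 62.0 CPM. The brainstem list stays under 2 CPM in all 6 libraries, and its diamond is also the highest, at 1.65 CPM.

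The genes whose pattern over the 6 libraries was most like the mean pattern of the 10 genes were Dao, Car8, Hes3, Adamts18, Calb1 and Nrk. Likeness was the root mean square difference of centred log2(CPM + 0.5) profiles, among genes with at least 10 CPM in a library, and was 0.123 for Dao and 0.218 to 0.240 for the other 5. Dao, the D-amino acid oxidase, had 57.1 CPM in left 1038 and 0.0641 to 0.259 CPM in the others. Car8 and Calb1, both markers of Purkinje cells, had 822 and 914 CPM, against means of 10.6 ± 0.940 and 15.2 ± 2.18 CPM (SD, n = 5). The 10 genes themselves lay at 0.584 to 1.36 from their mean pattern, because that mean runs between the nearly private and the shared set.

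The low values of the private set in the 5 bulb libraries were measured on few reads. The 6 genes together had 63976 reads in left 1038, 77 and 65 reads in left 1037 and 1039, and 35, 48 and 43 reads in right 1037, 1038 and 1039. This corresponded to 4391 CPM in left 1038, 4.99 (exact Poisson 95% interval 3.94 to 6.24) and 4.31 (3.33 to 5.5) CPM in left 1037 and 1039, and 2.24 (1.56 to 3.12), 3.18 (2.34 to 4.22) and 2.94 (2.12 to 3.95) CPM in right 1037, 1038 and 1039. Relative to left 1038 the sums were 0.114% and 0.0983% in the left and 0.0511% to 0.0724% in the right libraries. Both left values lay above all right values, as did those of 33.2% of all genes tested by side on this scale. The intervals of both left libraries overlapped those of right 1038 and right 1039, and lay above that of right 1037. No test is given for a sum over chosen genes. By gene, the mean over the 5 libraries was 0.0516% to 0.0868% of the left 1038 level for Gabra6, Cbln3, Fat2 and Cnpy1 and 0.229% for En2.

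The comparison of sides asks how a bulb whose naris was plugged differs from the open side. The plug was on the left in every mouse, so plug and anatomical side cannot be told apart. In the 5 libraries other than left 1038, Zic1 and Zic2 rose on the plugged side and none of the 10 genes fell. Of the 10 genes 7 had enough counts to be tested, and 2 of them passed, both higher on the left. Among the 14412 genes in the test the share called was 9.62%, with 3.16% higher and 6.46% lower, by edgeR's quasi-likelihood test with Benjamini-Hochberg adjustment over all genes, at an adjusted p under 0.05. With scaling by total library size the calls over all genes were 975 higher and 589 lower, against 456 higher and 931 lower with TMM scaling, and both Zic genes were called either way.

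In plugged bulbs Zic1 averaged 197 ± 1.77 CPM (SD, n = 2), against 154 ± 5.14 CPM in open bulbs (SD, n = 3). It rose by 0.28 on the log2 scale (SE 0.06, edgeR, adjusted p = 0.0134) and was higher in both mice with a pair. Zic2 averaged 57.2 ± 2.78 CPM in plugged bulbs (SD, n = 2), against 42.2 ± 0.732 CPM in open bulbs (SD, n = 3), and rose by 0.36 (SE 0.08, edgeR, adjusted p = 0.0172). In neither gene did the sides overlap, which on the same TMM-scaled levels held in the higher direction for 21.2% of all genes tested. The calls were near the threshold. Leaving out right 1037 ended that of Zic1 (adjusted p = 0.0525). Leaving out left 1037, right 1037 or right 1038 ended that of Zic2 (adjusted p up to 0.0827).

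Zic4 and Zic5 had log2 fold changes of 0.37 and 0.26 and did not pass (edgeR, adjusted p = 0.214 and 0.281). Values of other tissues are given beside these. The list of 8 meningeal markers, added after the data were seen, summed to 525 and 407 CPM in left 1037 and 1039 and to 334, 441 and 362 CPM in right 1037, 1038 and 1039, so that the sides overlapped, with 1 gene, Igf2, called higher. The choroid plexus list summed to 174 CPM in left 1037, 7.30 CPM in left 1039 and 5.96 to 7.51 CPM on the right, mostly Ttr. The bulb marker list summed to 2010 and 1928 CPM on the left and 2115 to 2299 CPM on the right. Of its 11 genes Tbx21 was called higher and Sp8, Th, Omp and Doc2g lower. Beside the calls in these lists, 3.16% of all genes tested were called higher and 6.46% lower. The part of these tissues in the Zic result was not tested.

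**Figure D4:**
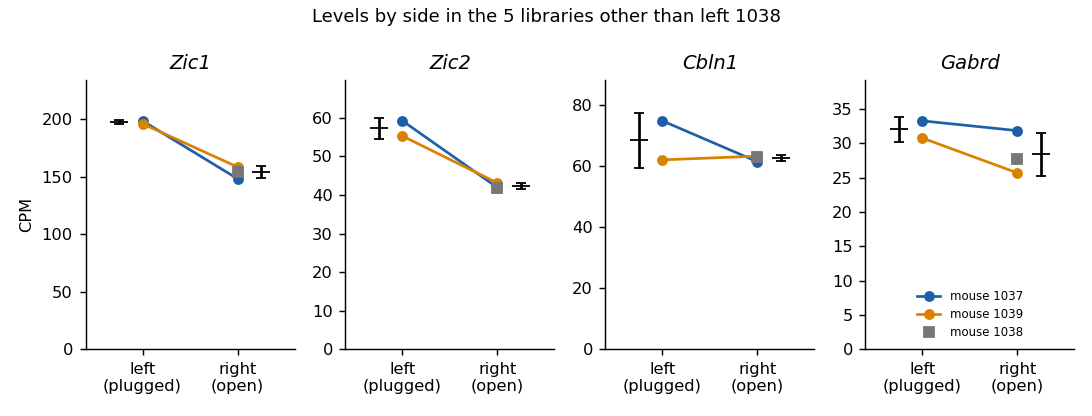
CPM of Zic1, Zic2, Cbln1 and Gabrd on the left (plugged) and right (open) side in the 5 libraries other than left 1038. Lines join the bulbs of 1 mouse, the square is right 1038, and bars give the mean and SD of each side (n = 2 left, n = 3 right). The sides are apart for both Zic genes and overlap for Cbln1 and Gabrd.

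Cbln1 and Gabrd did not pass. Cbln1 averaged 68.4 ± 9.03 CPM in plugged bulbs (SD, n = 2), against 62.6 ± 0.974 CPM in open bulbs (SD, n = 3), with a log2 fold change of 0.05 (SE 0.09, edgeR, adjusted p = 0.779) that became -0.09 without left 1037. Gabrd averaged 32.0 ± 1.77 CPM in plugged bulbs (SD, n = 2), against 28.4 ± 3.13 CPM in open bulbs (SD, n = 3), with 0.09 (SE 0.11, edgeR, adjusted p = 0.675). Cbln3, Fat2 and Cnpy1 had 0.49, 0.52 and 0.57, each with an SE over 0.4 and an adjusted p from 0.508 to 0.542, so a difference of this size was not detectable at 6 to 21 reads per library. Gabra6, En2 and Barhl1 were below the filter on counts. Without the filter they had 0.89, 1.04 and 2.28 (adjusted p = 0.596, 0.418 and 0.641).

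The genes related to the 10 by family moved by side in both directions. Cbln2 rose by 0.46 (SE 0.09, edgeR, adjusted p = 0.0152), with 62.0 and 57.9 CPM on the left and 37.5 to 45.3 CPM on the right. Its call ended without left 1037 or right 1038 (adjusted p up to 0.0584). Cbln4 fell by 0.74 (SE 0.13, edgeR, adjusted p = 0.00914), with 29.5 and 20.7 CPM on the left and 38.4 to 41.2 CPM on the right. Among 11 other GABA-A subunits 4 fell, including Gabra3 and Gabrb2, and 1 rose, Gabrb1. Of all genes tested 6.46% were called lower and 3.16% higher. Gabrb2 had 104 and 85.0 CPM on the left and 148 to 190 CPM on the right, and fell by 0.97 (edgeR, adjusted p = 0.00164). The call of Gabra3 ended in 4 of the 5 leave-outs (adjusted p up to 0.16).

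Of the 18 further granule cell genes, 3 rose and 3 fell, with a median log2 fold change of 0.10 against 0.005 over all genes tested. Of all genes tested 3.16% were called higher and 6.46% lower. Neurod1 rose by 1.48 (SE 0.11, edgeR, adjusted p = 2.24e-04), with 37.0 and 36.3 CPM on the left and 10.8 to 13.9 CPM on the right. Nfib and Calb2 rose by 0.25 and 0.26, calls that ended in 4 and 3 of the 5 leave-outs (adjusted p up to 0.0774 and 0.121). Etv1, Tiam1 and Adcy1 fell by 0.72, 0.59 and 0.38. Left 1038 had 408 CPM of Etv1 and 1909 CPM of Adcy1, above all other libraries. Among 6 progenitor genes tested, Sfrp1, a secreted Wnt modulator, rose by 0.62 (SE 0.09, edgeR, adjusted p = 0.00388) and Gli1 rose by 1.26 (SE 0.31, edgeR, adjusted p = 0.0321). The call of Gli1 ended in 3 of the 5 leave-outs (adjusted p up to 0.0739).

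**Figure D5:**
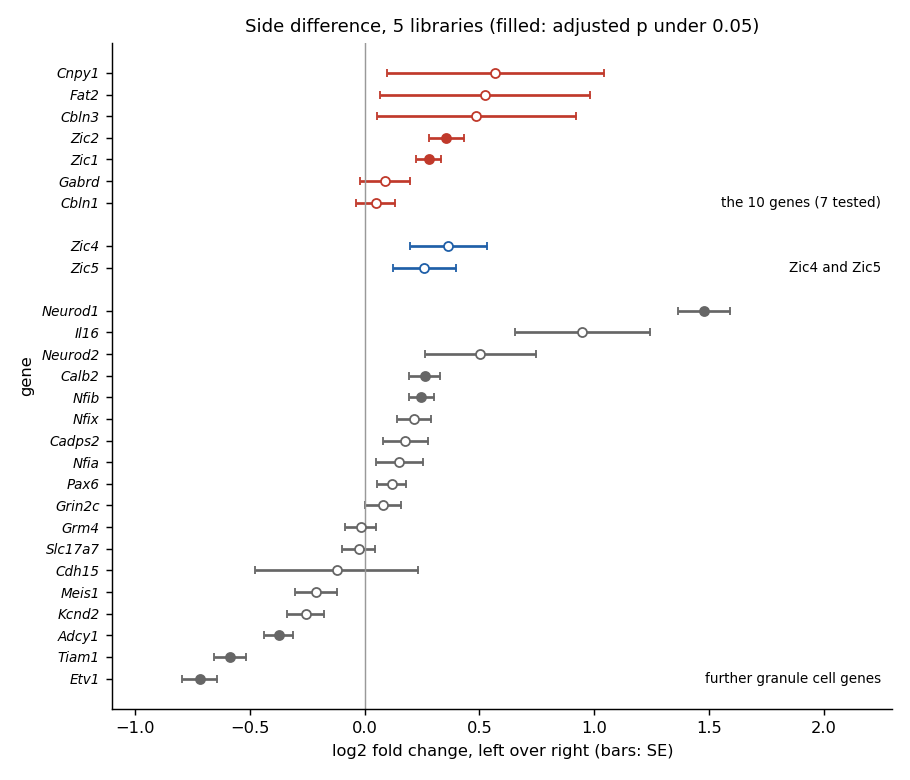
Log2 fold change of left over right in the 5 libraries other than left 1038, with its SE, for the 7 tested genes (red), Zic4 and Zic5 (blue) and further granule cell genes (grey). Filled points have an adjusted p under 0.05 over all genes tested. Zic1 and Zic2 are the filled red points, and the bars of Cbln3, Fat2 and Cnpy1 are the widest of the red ones.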

How the data were processed

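Per the file headers, the deposited table holds whole-number read counts, gene lengths and RPKM for each library. RPKM recomputed from count, length and total differed from the deposited RPKM by at most 3.6e-11. That length is mostly the genomic span, so RPKM was not used further. The build GRCm38 and the tools DESeq 1.18.0, HTSeq 0.6.1p2, TopHat2 and cutadapt 1.2.1 are named, without their roles, per the submitters' processing notes. The sources used here give neither strand use nor the handling of multi-mapped reads. Symbols matched 21852 of 22095 identifiers. Spans and transcript lengths are from GENCODE M21 (GRCm38).

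CPM is relative to the library total. Sides were tested with edgeR 4.0.16 in R 4.3.3 (TMM, filterByExpr, side as the only term). The SE is the log2 fold change over the root of F. The test was checked on simulated counts. P-values measure the spread between these bulbs. Both bulbs of a number come from 1 mouse, so they are paired by design. Deviations of same-numbered libraries from the mean of their side correlated at 0.056, 0.047 and 0.122 in mice 1037, 1038 and 1039. Those side means were taken over all 6 libraries with left 1038 included, so these values cannot say how alike paired bulbs are. Alternatives were RLE or total-size scaling, other filters, DESeq2 1.42.0, limma-voom (limma 3.58.1), the mouse as a block, all 6 libraries and leave-outs. Genes and lists were chosen with earlier results of these data known. Named were the 10 genes, list genes called by side or with the largest ratios, and the genes most like their profile. Some genes of the lists are counted but not reported here by name.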

Additional observations from a re-analysis of the deposited data

How the results depend on the processing

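Zic1 and Zic2 were both called in the 5 libraries under RLE and total-size scaling, without a filter, with 1 CPM in 2 libraries, and by DESeq2 and limma-voom, as also with the mouse as a replicate block (Zic1 0.28, adjusted p = 0.0132; Zic2 0.35, adjusted p = 0.0183), which changed no call of the 10 genes. Over all genes 1387 were called, and 1553 with the block. With mice 1037 and 1039 only, 660 were called and 1 of the 10 genes, Zic1. Leave-outs gave 660 to 1096 called genes, and 0 to 2 of the 10. The lowest number of members, 0, came without right 1037, where 669 genes were called. With all 6 libraries 0 genes and 0 of the 10 were called by edgeR, with or without the block (1196 and 671 at an unadjusted p under 0.05), and Zic1 and Zic2 had 1.75 and 2.06 (adjusted p = 0.554 each). In those 6 libraries Etv1 had 0.14, Adcy1 2.12 and Cbln2 -0.12, and with the block Adcy1 had 0.76, Sfrp1 -0.25, Cbln2 -0.99, Gabrb1 -0.07 and Tbx21 -0.82, signs opposite to those of the 5 libraries. The library labelled left 1038 is the one added there. Cbln1 had -0.092 without left 1037 and up to 0.188 in other leave-outs. The median log2 ratio of the 10 genes, 9.11, was 8.23 against the right libraries only and 8.38 to 8.94 in leave-outs. It moved to 8.23 and 8.38 through Barhl1, whose single read outside left 1038 is in left 1039. Against the right libraries only, or without left 1039, Barhl1 had no read in the reference and 3 counts were allowed there. Its log2 ratio was then a lower bound of 7.13 to 7.55, against 9.45 with all 5 libraries, so that drop of the median rests on the allowance. The length alternative was chosen after the data were seen. Depth limits Gabra6, Cbln3, Fat2, Cnpy1, En2 and Barhl1 in the bulb libraries, where 0 to 21 reads were counted.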
